A study of Rattus norvegicus with 12 samples.

Results

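Serotonin acts in the brain through a large family of receptors, and 10 of them (Htr1a, Htr1b, Htr1d, Htr1f, Htr2a, Htr2c, Htr3a, Htr4, Htr6 and Htr7) were examined here in the rat striatum, 10 of the 17337 genes in the count table. The members were taken by gene symbol, and all 10 had a row. Type 1 receptors couple to Gi and Go proteins, which lower cyclic AMP and open potassium channels, and several of them sit on axon terminals, where they restrain transmitter release. Type 2 receptors couple to Gq and phospholipase C, type 3 receptors are cation channels, and type 4, 6 and 7 receptors couple to Gs proteins and raise cyclic AMP. The striatum receives serotonin from axons of the raphe nuclei.

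Each library came from the striatum of 1 adult male Sprague–Dawley rat of wild-type genotype. All 12 rats were labelled as treated with methamphetamine (MA), each after 16 days of self-administration, a schedule in which a rat presses a lever for the drug. In 4 rats (MA12) the tissue was taken after 12 h of abstinence and in 4 rats (MA24) after 24 h, and the remaining 4 rats were called non-addicted by the labels, with no time of killing. The study's methods do not describe the non-addicted rats, so how they were selected is not known here. The 2 abstinence groups were therefore killed at different times of day, and time of day and length of abstinence cannot be told apart. No group analysed here was labelled as saline or as killed directly after the last session. Whether the non-addicted rats belong to either of these groups of the study is not known here. Every group was labelled as treated with MA, so no drug-free level is given. The rat number ended in N in all 4 MA24 rats, in 2 MA12 rats (4N and 7N) and in no non-addicted rat. The labels do not say what N stands for. All libraries carried the same batch label, and the kind of rat number and the group cannot be told apart between the non-addicted and the MA24 rats.

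Between 17908962 and 23850284 reads per rat were counted on genes. CPM are counts scaled to the library's total multiplied by its TMM normalization factor. The 6 markers of striatal projection neurons summed to between 9619 and 13776 CPM in every rat. The 6 markers of cortical excitatory neurons summed to at most 16 CPM. Rats of a group differed by more than sampling noise (chi-square per degree of freedom of 9.72 or more in each of the 18 pairs within groups), and each rat was used as 1 replicate. Nothing more on their origin is labelled, so the p-values measure the spread between these rats. Levels are given in log2 CPM after a prior count of 2 was added, and differences are log2 fold changes from edgeR's quasi-likelihood test with their standard error (SE) and 95% interval. Genes were called when the Benjamini-Hochberg adjusted p over all genes tested was below 0.05 and the fold change was at least 1.5. Levels are not compared between receptors, because gene lengths of the build used for counting were not used here. In bulk tissue, fewer cells that express a receptor and less mRNA per cell cannot be told apart.

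No serotonin receptor was called in any of the 3 comparisons by edgeR. All 10 receptors passed the filters and were tested each time, and in each comparison 0 of 10 were called, 1 of 10 had an unadjusted p below 0.05, and 0 of 10 had groups of rats that did not overlap. In MA24 vs MA12, 2.45% of all genes tested were called and 15.6% had groups that did not overlap. The same shares were 0.251% and 7.10% in non-addicted vs MA12, and 0.456% and 10% in non-addicted vs MA24. An unadjusted p below 0.05 was found in 23.6%, 12.3% and 17.5% of all genes tested in these comparisons, in the same order. DESeq2 called 0 receptors in the 2 comparisons with MA12 and 1, Htr1a, in non-addicted vs MA24. The median log2 fold change of the 10 receptors was -0.25 in MA24 vs MA12, beside -0.02 over all genes tested. It was -0.21 beside -0.01 in non-addicted vs MA12, and 0.16 beside 0.00 in non-addicted vs MA24. The comparisons share groups, so these medians are not independent of each other.

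**Figure D1:**
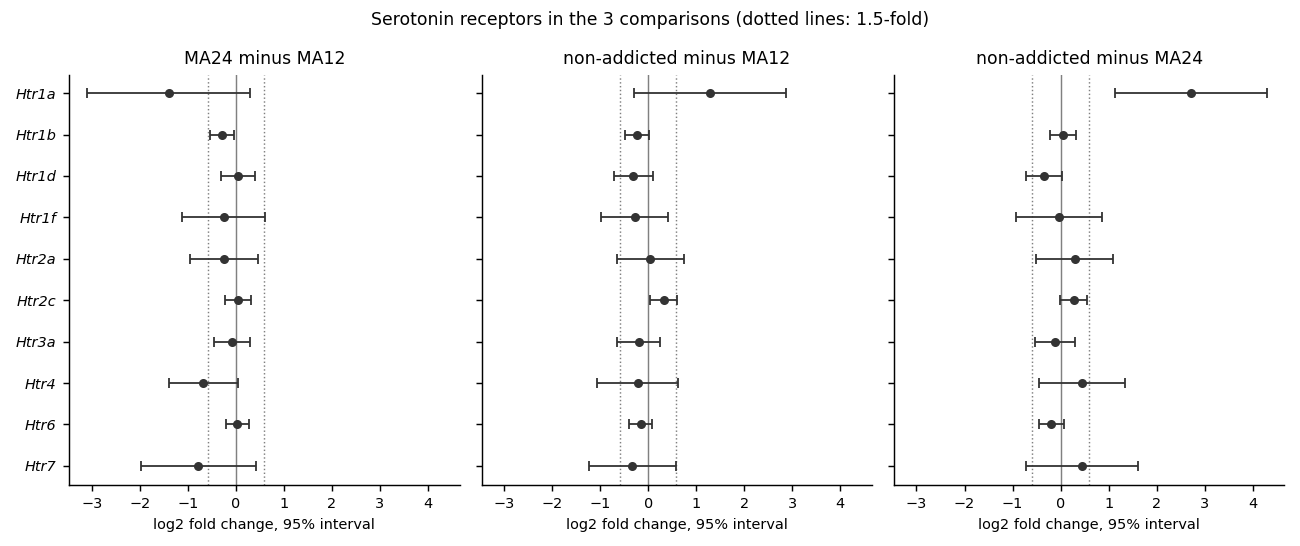
Log2 fold change of each receptor (x axis, points) with its 95% interval (bars) in the 3 comparisons; the dotted lines mark a 1.5-fold difference in either direction. Intervals of Htr1b and Htr6 stay within 1.5-fold in each comparison, whereas that of Htr1a in non-addicted minus MA24 runs from 1.13 to 4.29.

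The precision differed between receptors. In MA24 vs MA12, the 95% interval of 5 receptors (Htr1b, Htr1d, Htr2c, Htr3a and Htr6) lay within a 1.5-fold difference in either direction. In non-addicted vs MA24 this held for 4 (Htr1b, Htr2c, Htr3a and Htr6), and in non-addicted vs MA12 for 2 (Htr1b and Htr6). Htr1a, Htr1f, Htr2a, Htr4 and Htr7 had intervals that reached past 1.5-fold in all 3 comparisons, and each had at most 113 counts in any rat.

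**Figure D2:**
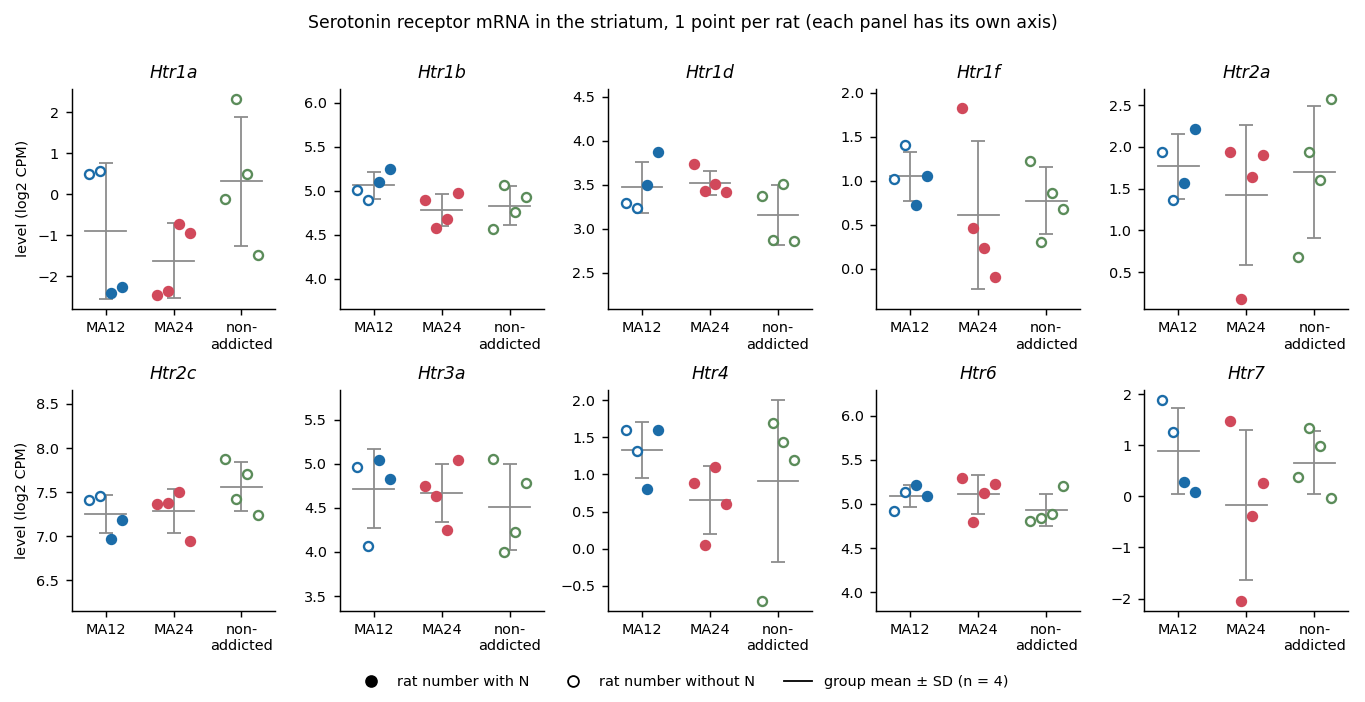
Level of each receptor (log2 CPM, y axis, 1 panel per receptor with its own scale) in the 4 rats of each group; filled points are rats whose number ends in N, open points the others, and grey bars are the mean and SD of 4 rats. The groups overlap in every panel, and in Htr1a the 2 MA12 rats without N lie at 0.49 and 0.56 and the 2 with N at -2.40 and -2.26.

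Among the Gi-coupled receptors, Htr1a had the widest spread. Htr1a encodes the receptor that inhibits raphe neurons themselves and is abundant in the hippocampus and septum. It had 31, 33, 2 and 2 counts in MA12 rats 21, 31, 4N and 7N. The MA24 rats 9N, 14N, 15N and 16N had 2, 2, 10 and 8 counts. The non-addicted rats 9, 11, 12 and 13 had 16, 100, 32 and 5 counts. The highest library was thus non-addicted rat 11, and the low ones were found in all 3 groups. The level was -0.90 ± 1.65 log2 CPM in MA12, -1.62 ± 0.92 in MA24 and 0.31 ± 1.58 in non-addicted rats (mean ± SD, n = 4 each). The biological coefficient of variation that edgeR fitted for Htr1a was 0.63 to 0.72 over the 3 comparisons, beside a median of 0.14 over all genes tested in each.

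In non-addicted vs MA24, the log2 fold change of Htr1a was 2.71 (SE 0.76, 95% interval 1.13 to 4.29). It was not called by edgeR (adjusted p = 0.1) and was called by DESeq2 (log2 fold change 2.72, adjusted p = 0.0205). The two-sided exact permutation test of the levels gave p = 0.0857, where the smallest p that 4 rats against 4 allow is 0.0286. Summed over the 4 rats, 153 counts stood against 22, a depth-scaled ratio of 7.08 (4.51 to 11.6, an interval that covers counting error only). A single rat carried much of this: without non-addicted rat 11 the log2 fold change was 1.54 (edgeR adjusted p = 0.366), and without non-addicted rat 13 it was 3.07 (adjusted p = 0.0134, called). In MA24 vs MA12 the difference was -1.40 (SE 0.81, edgeR adjusted p = 0.3). Among rats with N alone the difference was 1.38 and was not called. That fit set 2 MA12 rats with 2 counts each against 4 MA24 rats with 2 to 10 counts. In non-addicted vs MA12 it was 1.29 (SE 0.76, edgeR adjusted p = 0.521), and 0.14 without rat 11.

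The counts of Htr1a followed the kind of rat number within MA12, the 1 group that holds both kinds. Over all groups, the 6 rats without N had 5 to 100 counts, 217 in sum, and the 6 rats with N had 2 to 10 counts, 26 in sum. In a fit of all 3 groups with a term for the kind of rat number, the log2 fold change of non-addicted vs MA24 was -0.90 (SE 1.44, edgeR adjusted p = 0.967). This alternative was added after the data were seen, and it rests on the 4 MA12 rats to separate both factors.

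Other genes were high in the same libraries as Htr1a. Kcnj6 encodes a subunit of the G protein-gated potassium channels that Gi-coupled receptors such as Htr1a open. It had 297 and 179 counts in MA12 rats 21 and 31, and 52 and 57 in MA12 rats 4N and 7N. It had 31 to 61 counts in the MA24 rats, and 108, 343, 170 and 52 in non-addicted rats 9, 11, 12 and 13. In Kcnj6 as in Htr1a, non-addicted rat 11 was the highest of all 12 rats and non-addicted rat 13 the lowest of its group. Ependymal cells line the ventricle beside the striatum, and 5 of the 6 genes on their marker list had a row. Their summed CPM was 58.3 and 82.6 in MA12 rats 21 and 31, 31.8 and 36.6 in MA12 rats 4N and 7N, and 34.9 to 53.5 in the MA24 rats. In non-addicted rats 9, 11, 12 and 13 it was 72.7, 114, 92.3 and 45.1. All 5 ependymal markers were above 0 in log2 fold change in non-addicted vs MA24, beside 50.3% of all genes tested. Of the 5, 2 were called by edgeR, Foxj1 (1.08, adjusted p = 0.0354) and Rsph1 (1.20, adjusted p = 0.0354), beside 0.456% of all genes tested. DESeq2 called 1 of the 5. In this comparison edgeR called 0 genes of any kind without the variance filter, and 0 in 1 fit of the 3 groups. The thalamic list (5 of 6 genes with a row) summed to 65.5 and 75.1 CPM in the MA12 rats without N, to 38.6 and 49.7 in those with N, to 34.4 to 41.6 in MA24 rats and to 33.6 to 90.4 in non-addicted rats, again with rat 11 highest and rat 13 lowest. That sum was mostly Prkcd, whose counts were 1196 and 937 without N and 408 and 523 with N in MA12, and Calb2, which is also on the list of GABA interneurons. Tcf7l2 was lower in the MA12 rats without N (2.98 and 3.12 log2 CPM) than in those with N (3.27 and 3.26), and Lef1 overlapped between them. The defining thalamic marker Slc17a6 had few counts, at most 13 in any rat. It had 8, 4, 1 and 1 in MA12 rats 21, 31, 4N and 7N, and 2 to 6 in the MA24 rats. In non-addicted rats 9, 11, 12 and 13 it had 2, 13, 10 and 2. The striatal projection neuron list ran the other way in MA12. Its sum was 9619 and 10285 CPM in rats 21 and 31, and 12563 and 12844 in rats 4N and 7N. It was 12071 to 13776 CPM in MA24 rats. In non-addicted rats 9, 11, 12 and 13 it was 11070, 10239, 10068 and 12468. That sum was mostly Ppp1r1b, and Foxp1 overlapped between the MA12 rats with and without N. The part of these cell types in the Htr1a difference was not tested.

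**Figure D3:**
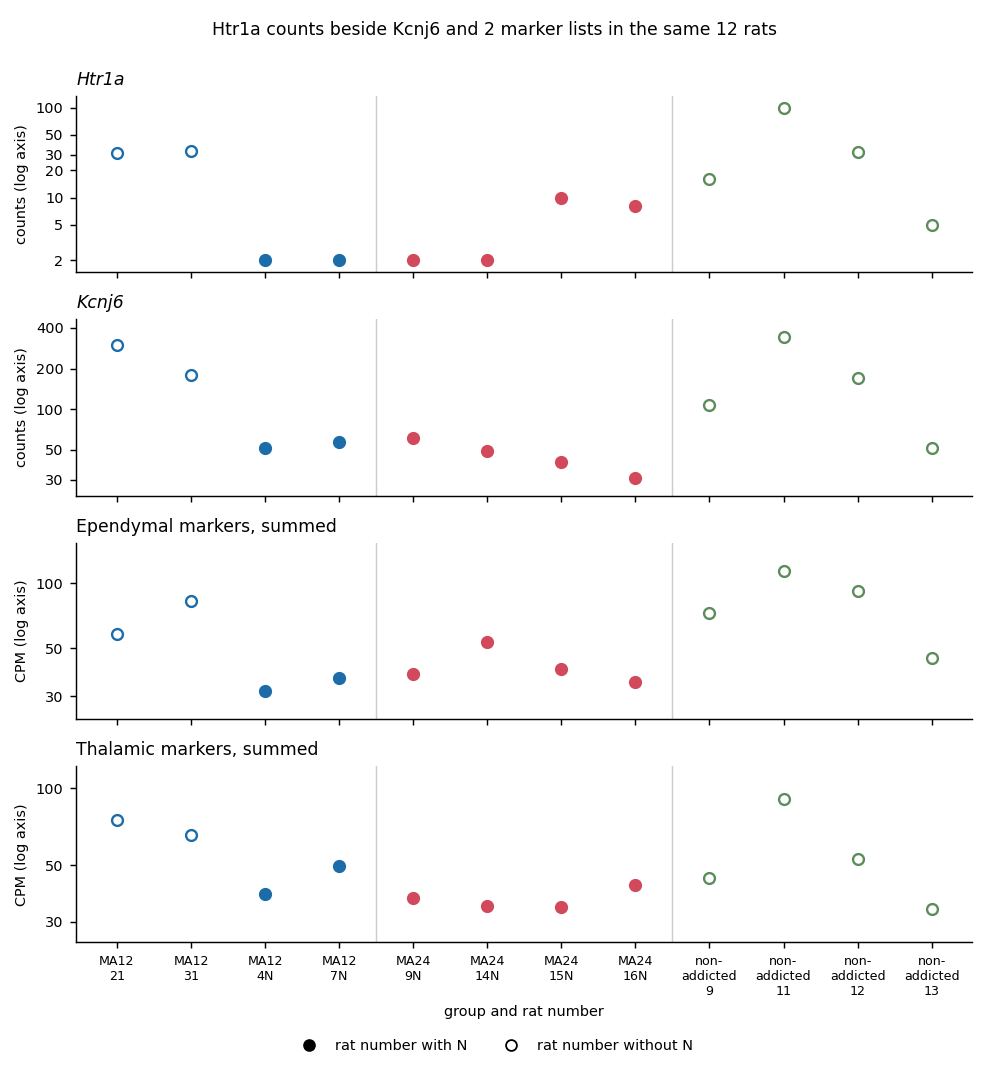
Counts of Htr1a and of Kcnj6, and summed CPM of the ependymal and thalamic marker lists (y axes, all logarithmic), in the same 12 rats (x axis, group and rat number; filled points are rats with N). Non-addicted rat 11 is highest in all 4 panels, and in MA12 the 2 rats without N lie above the 2 with N in each panel. The striatal projection neuron list, which ran the other way in MA12, is not drawn.

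Htr1b encodes the receptor on the axon terminals of serotonin neurons and of striatal projection neurons. It had 766, 712, 725 and 672 counts in MA12 rats 21, 31, 4N and 7N. The MA24 rats 9N, 14N, 15N and 16N had 688, 482, 497 and 594 counts, and the non-addicted rats 9, 11, 12 and 13 had 455, 680, 660 and 584. The MA12 rats were between 4.90 and 5.25 log2 CPM and overlapped with MA24 through rat 16N (4.97). The level was 5.06 ± 0.15 in MA12, 4.78 ± 0.18 in MA24 and 4.83 ± 0.22 in non-addicted rats (SD, n = 4). MA24 minus MA12 was -0.28 (SE 0.12, 95% interval -0.53 to -0.03), with an edgeR adjusted p of 0.159 and an exact permutation p of 0.0571. Non-addicted minus MA12 was -0.23 (SE 0.12, edgeR adjusted p = 0.453), and non-addicted minus MA24 was 0.05 (interval -0.22 to 0.32). With rats numbered with N alone, MA24 minus MA12 was -0.37 (edgeR adjusted p = 0.24).

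Htr1d, a relative of Htr1b on axon terminals, was at 3.47 ± 0.29 log2 CPM in MA12, 3.52 ± 0.14 in MA24 and 3.15 ± 0.34 in non-addicted rats (SD, n = 4). Its counts ran from 138 in non-addicted rat 13 to 306 in MA24 rat 9N. Non-addicted minus MA24 was -0.35 (SE 0.18, interval -0.72 to 0.02, edgeR adjusted p = 0.309), and MA24 minus MA12 was 0.04 (interval -0.31 to 0.39). In MA12 the rats with N had 3.50 and 3.87 log2 CPM and those without had 3.29 and 3.24, so the order by rat number was opposite to that of Htr1a. Htr1f, a Gi-coupled receptor targeted by some migraine drugs, had 16 to 80 counts per rat. MA24 rat 9N alone held 80 of the 143 counts of its group, and the other MA24 rats had 16 to 26. MA24 minus MA12 was -0.25 with rat 9N (SE 0.41, edgeR adjusted p = 0.744) and -0.90 without it (adjusted p = 0.178).

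Of the Gq-coupled receptors, Htr2c had the most counts, from 2319 to 5107 per rat. Its mRNA is edited at several bases, and it is made by striatal projection neurons and, at high levels, by the choroid plexus, the tissue that makes cerebrospinal fluid. MA12 rats 21, 31, 4N and 7N were at 7.41, 7.45, 6.97 and 7.18 log2 CPM, and MA24 rats 9N, 14N, 15N and 16N at 7.36, 7.38, 7.50 and 6.94. Non-addicted rats 9, 11, 12 and 13 were at 7.87, 7.42, 7.71 and 7.24. The highest 2 rats were non-addicted, and the other 2 non-addicted rats lay among those of the other groups. Non-addicted minus MA12 was 0.32 (SE 0.14, 95% interval 0.03 to 0.60, edgeR adjusted p = 0.344), with an exact permutation p of 0.143. The MA24 minus MA12 difference was 0.05 (interval -0.22 to 0.31), and non-addicted minus MA24 was 0.27 (interval -0.01 to 0.55). Ttr, the defining marker of the choroid plexus, had 329 counts in non-addicted rat 9, the rat with the highest Htr2c, and at most 17 in any other rat. Without rat 9, non-addicted minus MA12 was 0.21 (edgeR adjusted p = 0.623). The 8 choroid plexus markers summed to 24.8 CPM in rat 9, to 6.25 to 11.9 in the other non-addicted rats, to 2.87 to 9.36 in MA12 and to 3.75 to 4.78 in MA24. The sum in rat 9 was mostly Ttr. The other markers on the list were mixed. Folr1 was lowest of its group in rat 9 (58 counts, against 68 to 152). Aqp1 (0.31 log2 CPM) and Kl (-0.83) were highest of their group in rat 9. Clic6 (1.46) and Slc4a5 (-1.49) lay within the range of the other non-addicted rats, as did Kcnj13 with 2 counts. Otx2 had 0 counts in every non-addicted rat. In MA12, Htr2c was also higher in both rats without N than in both with N, and non-addicted minus MA12 was 0.17 over rats without N. The part of choroid plexus tissue in the Htr2c values was not tested.

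Htr2a, the receptor on which classic psychedelics act, had 21 to 113 counts. MA12 rats had 89, 59, 61 and 81 counts (rats 21, 31, 4N and 7N), MA24 rats had 87, 21, 59 and 69 (9N, 14N, 15N and 16N), and non-addicted rats had 29, 76, 72 and 113 (9, 11, 12 and 13). Rat 14N was far below the other MA24 rats, while the non-addicted rats were spread out, with rat 9 lowest and rat 13 highest. The difference between MA24 and MA12 was -0.25 (SE 0.34, edgeR adjusted p = 0.691), and 0.03 without rat 14N. Non-addicted minus MA24 was 0.29 (SE 0.39, adjusted p = 0.714) and -0.07 without non-addicted rat 13.

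Htr3a encodes the subunit without which type 3 channels do not form, and it marks a class of GABA interneurons. It had 322 to 738 counts, and its level was 4.72 ± 0.45 log2 CPM in MA12, 4.67 ± 0.33 in MA24 and 4.51 ± 0.49 in non-addicted rats (SD, n = 4). The lowest rats were non-addicted 11 (4.00) and MA12 31 (4.07), both without N, while non-addicted rat 9 (5.05) was the highest. MA24 minus MA12 was -0.08 (95% interval -0.45 to 0.30), and non-addicted minus MA24 was -0.12 (interval -0.54 to 0.29). Non-addicted minus MA12 was -0.20 (SE 0.21, edgeR adjusted p = 0.76). Htr3b, the other subunit on the list, had at most 1 count in any rat.

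Among the Gs-coupled receptors, Htr6, which is enriched in the striatum, varied least. Its level was 5.09 ± 0.12 log2 CPM in MA12, 5.11 ± 0.22 in MA24 and 4.93 ± 0.18 in non-addicted rats (SD, n = 4), with 536 to 905 counts per rat. MA24 minus MA12 was 0.03 (95% interval -0.21 to 0.28), non-addicted minus MA12 was -0.15 (interval -0.39 to 0.08), and non-addicted minus MA24 was -0.19 (interval -0.45 to 0.08). These intervals leave out a 1.5-fold difference in each comparison.

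Htr4, a receptor of striatal projection neurons, had 70, 57, 35 and 52 counts in MA12 rats 21, 31, 4N and 7N. MA24 rats 9N, 14N, 15N and 16N had 41, 19, 40 and 27 counts. Non-addicted rats 9, 11, 12 and 13 had 10, 64, 64 and 42. The levels of MA12 and MA24 overlapped through rats 4N (0.80), 9N (0.89) and 15N (1.10), and the lowest level of all was that of non-addicted rat 9 (-0.70). MA24 minus MA12 was -0.68 (SE 0.34, 95% interval -1.40 to 0.04), with an edgeR adjusted p of 0.24 and an exact permutation p of 0.0857. It was negative with any 1 rat left out, between -0.84 and -0.50, and -0.55 among rats with N. Non-addicted minus MA24 was 0.45 (SE 0.43, adjusted p = 0.595), and non-addicted minus MA12 was -0.22 (SE 0.40, adjusted p = 0.877).

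Htr7, known from thalamus and hypothalamus, had 85, 55, 24 and 17 counts in MA12 rats 21, 31, 4N and 7N, and 62, 3, 13 and 21 in MA24 rats 9N, 14N, 15N and 16N. Non-addicted rats 9, 11, 12 and 13 had 23, 49, 46 and 17. As with Htr1a, the MA12 rats without N were above those with N. For Htr7, MA24 minus MA12 was -0.78 (SE 0.57, edgeR adjusted p = 0.414), with a value of 0.16 among rats with N alone. Without rat 14N it was -0.42, and without rat 9N it was -1.64 (adjusted p = 0.0905).

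Several receptors shared their lowest libraries. MA24 rat 14N was the lowest of its group in 5 of the 10 receptors (Htr1b, Htr2a, Htr4, Htr6 and Htr7), and MA24 rat 9N the highest in 5 (Htr1d, Htr1f, Htr2a, Htr6 and Htr7). Non-addicted rat 9 was the lowest of its group in 4 (Htr1b, Htr2a, Htr4 and Htr6) and the highest in 3 (Htr1f, Htr2c and Htr3a). Of the 41 pathway genes with a count in every rat, 14N was the lowest MA24 rat in 22 and rat 9 the lowest non-addicted rat in 18. How often these rats were the extremes over all genes was not counted. Over all genes, edgeR called 264 in MA24 vs MA12, 129 without rat 14N and 436 without rat 9N. With 14N and 9 both left out of non-addicted vs MA24, an alternative added after the data were seen, Htr1a was called by edgeR (2.67, adjusted p = 0.0348) and no other receptor was.

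**Figure D4:**
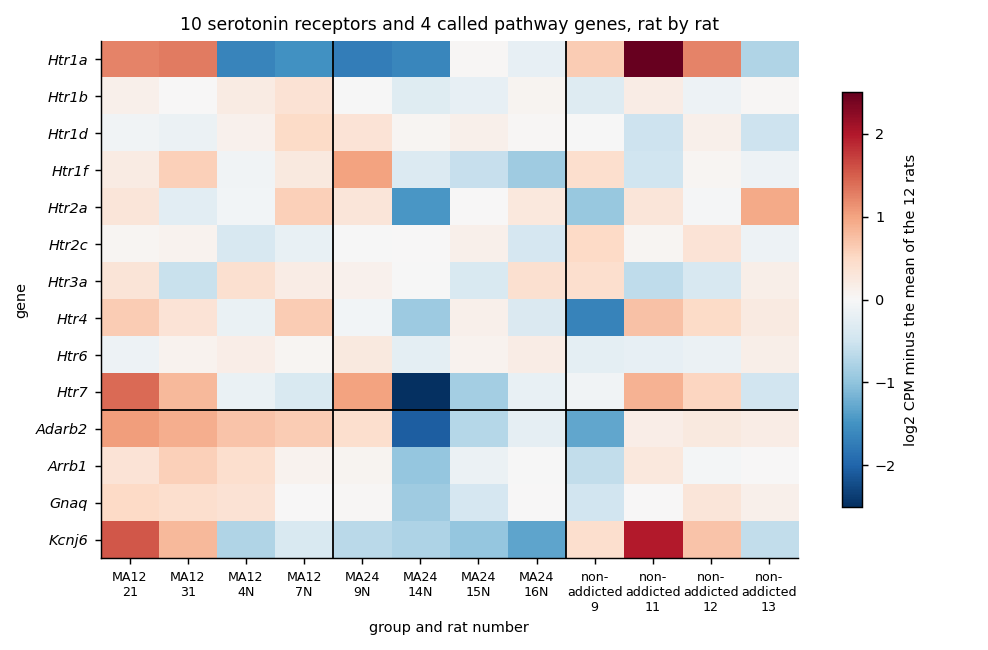
Colour map of the 10 receptors and, under the line, the 4 pathway genes called in a comparison (rows) in the 12 rats (columns, by group); colour is log2 CPM minus the mean of the 12 rats, red above and blue below it. MA24 rat 14N is blue in Htr2a, Htr4, Htr7, Adarb2, Arrb1 and Gnaq, and non-addicted rat 11 is darkest red in Htr1a and Kcnj6.

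The rest of the serotonin pathway was examined with 4 lists of 48 genes, 47 of which had a row. In MA24 vs MA12, 39 were tested, and 4 were called lower and 0 higher by edgeR (3 by DESeq2), which is 10.3% of the list beside 2.45% of all genes tested (1.72% lower and 0.735% higher). On the list 28 of 39 genes (71.8%) were below 0, beside 51.7% of all genes, and the median was -0.20 beside -0.02. Among the receptor partners and editing genes, Adarb2 and Arrb1 were called. Adarb2 is a relative of the enzymes that edit Htr2c mRNA and has no known editing activity of its own, and Arrb1 encodes an arrestin that binds activated receptors. Adarb2 had 117 to 210 counts in MA12 and 19 to 133 in MA24, which did not overlap on the log2 CPM scale, and its log2 fold change was -1.24 (SE 0.34, edgeR adjusted p = 0.0381). Arrb1 fell by 0.59 on the log2 scale (SE 0.17, adjusted p = 0.0453). The enzymes that edit Htr2c, Adar and Adarb1, were tested and not called.

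Gnaq and Kcnj6 were the other called genes. Gnaq, the G protein of type 2 receptors, was lower in MA24 by a log2 fold change of -0.60 (SE 0.16, edgeR adjusted p = 0.0351), with 559 to 1042 counts in MA12 and 341 to 737 in MA24. Kcnj6 was lower in MA24 (-1.54, SE 0.39, adjusted p = 0.0274) and higher in non-addicted than in MA24 rats (1.86, SE 0.39, adjusted p = 0.0364). Leaving out single rats ended these calls. Without MA24 rat 14N, Adarb2 was at -0.94 (adjusted p = 0.0543), Arrb1 at -0.40 (adjusted p = 0.0719) and Gnaq at -0.45 (adjusted p = 0.0719). Kcnj6 in MA24 vs MA12 was at -0.99 without MA12 rat 21 (adjusted p = 0.151) and at -0.35 among rats with N (adjusted p = 0.696). Among rats with N, a fit of 2 rats against 4, Adarb2 was at -1.07 (adjusted p = 0.148), Arrb1 at -0.46 (adjusted p = 0.212) and Gnaq at -0.46 (adjusted p = 0.231). With a term for the kind of rat number, Kcnj6 in non-addicted vs MA24 was at 0.06 (adjusted p = 0.994), and without non-addicted rat 11 it was at 1.21 (adjusted p = 0.125).

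In non-addicted vs MA12, 0 of 37 pathway genes tested were called by edgeR or by DESeq2, and 6 (16.2%, beside 12.3% of all genes) had an unadjusted p below 0.05. In non-addicted vs MA24, 1 of 39 was called (Kcnj6; 2.56% beside 0.456% of all genes) and 7 (17.9% beside 17.5%) had an unadjusted p below 0.05. On the list 31 of 39 genes (79.5%) were above 0, beside 50.3% of all genes, and the median was 0.13 beside 0.00. This share and the 71.8% below 0 in MA24 vs MA12 rest on the same MA24 rats, so they are not independent of each other.

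**Figure D5:**
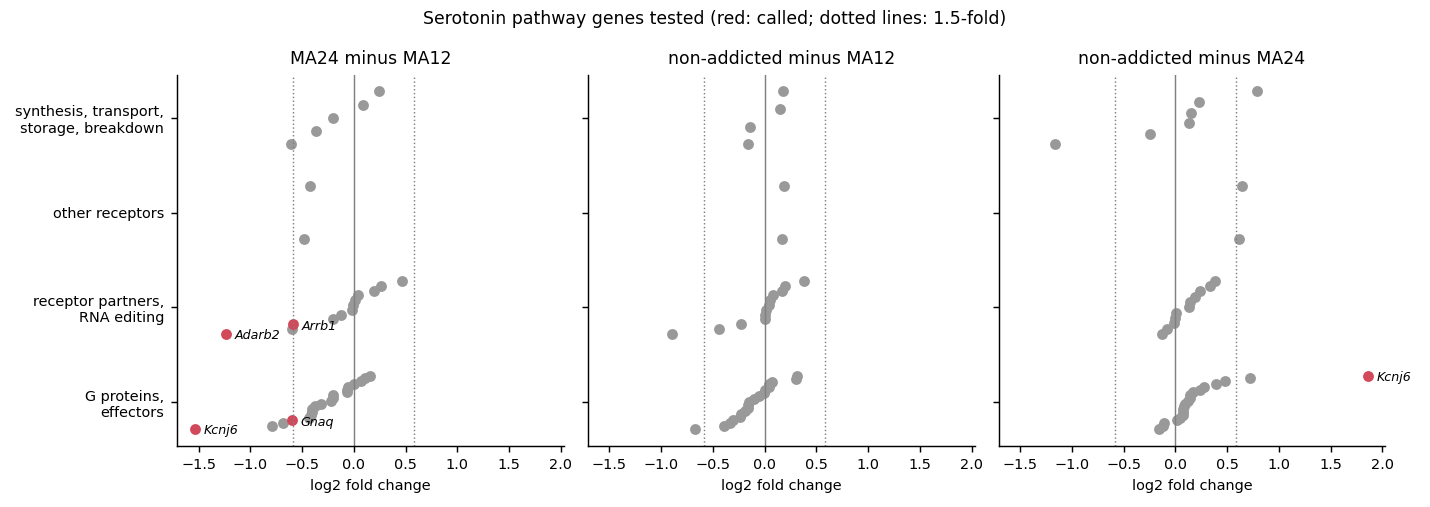
Log2 fold changes (x axis) of the pathway genes tested in each of 4 lists (rows) in the 3 comparisons; each point is 1 gene, called genes are red and named, and dotted lines mark 1.5-fold. In MA24 minus MA12, 28 of 39 points lie below 0, and in non-addicted minus MA24, 31 of 39 lie above it. These comparisons share the MA24 rats.

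Genes of serotonin neurons themselves were scarce. The serotonin transporter Slc6a4 had 0 to 8 counts per rat and the raphe transcription factor Fev 0 to 3, and neither passed the filter on low counts. Tph2, the enzyme of serotonin synthesis in neurons, had 42 to 167 counts and was not called in any comparison. Maob, a monoamine oxidase and the list gene with the most counts, was at 6.47 ± 0.12 log2 CPM in MA12, 6.47 ± 0.08 in MA24 and 6.62 ± 0.11 in non-addicted rats (SD, n = 4). The vesicular monoamine transporter Slc18a2, shared with dopamine axons, was at 3.35 ± 0.49 in MA12, 2.77 ± 0.42 in MA24 and 3.51 ± 0.62 in non-addicted rats. Its MA24 minus MA12 difference was -0.61 (SE 0.24, edgeR adjusted p = 0.136). As with Htr1a, the MA12 rats without N (377 and 248 counts) were above those with N (150 and 160). Non-addicted rats 9, 11, 12 and 13 had 237, 370, 276 and 123 counts of Slc18a2, and the MA24 rats 116 to 207. Of the remaining serotonin receptors, Htr5a had 47 to 184 counts and was not called. Its non-addicted minus MA24 difference was 0.64 (SE 0.24, adjusted p = 0.191). Htr5b had at most 16 counts and Htr2b at most 4. Dlg4 (postsynaptic density protein 95) had the most counts among receptor partners and Adcy5 (the main adenylyl cyclase of striatal projection neurons) among effectors. For Dlg4, MA24 minus MA12 was 0.20 (SE 0.11, adjusted p = 0.281), and for Adcy5 it was -0.06 (SE 0.12, adjusted p = 0.782).

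For the 6 receptors with a mean of at least 50 counts, the genes whose levels followed each most closely over the 12 rats were looked up among 10764 genes, as a description with no test. The points share libraries, and the groups enter them. The genes named had the highest r among 10764 genes over only 12 rats, so high values can arise from that choice alone. Shared function was not tested. Htr1b was most like Ubfd1 (Pearson r = 0.92, Spearman rho = 0.97), Adipor2 (r = 0.90) and Adora1 (r = 0.89), an adenosine receptor that also inhibits transmitter release. Htr1d was most like Ephx1 (r = 0.88), Akr1b1 (r = 0.87) and Slc35d3 (r = 0.84). Htr2a was most like Exoc8 (r = 0.93), Tshz3 (r = 0.88) and Kalrn (r = 0.88). Htr2c was most like Magoh (r = 0.94), Zwint (r = 0.92) and Ywhah (r = 0.92). Among the genes most like Htr3a were LOC500475 (r = 0.91) and Ubac1 (r = 0.85). Htr6 was most like Tecpr1 (r = 0.93), Rph3a (r = 0.93) and Adcy5 (r = 0.91), 1 of the pathway genes described above.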

How the data were processed

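The authors extracted RNA from all striata in 1 batch, prepared poly-A libraries (TruSeq v2), trimmed paired-end reads with Cutadapt (1.18 in the submitters' processing notes), aligned them to rn6 with STAR (2.7.0e) and counted them per gene with featureCounts. The notes also list HTSeq 0.12.4. How strand and reads with several positions were treated is not given in the sources used here, so counts of overlapping genes are uncertain. The deposited values are raw counts, without normalization, for 17337 genes in 12 rats, and all 12 columns were used.

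Each pair of groups was filtered to genes whose mean over its 8 rats exceeded 4 counts, less the 15% that varied least in log2 CPM. edgeR 4.0.16 (R 4.3.3) compared the groups with TMM scaling and the quasi-likelihood test, with the thresholds given above. This is a reading of the study's filters. Alternatives were DESeq2 1.42.0, RLE factors, no variance filter, no filter, 1 fit for the 3 groups, each rat omitted in turn, and rats of 1 kind of number. Exact permutation tests (two-sided, 70 splits) were run in Python 3.11.15 (numpy 2.4.6), and tables made in pandas 2.3.3. Groups came from the labels. Every pathway gene called is named, with the gene of each list that has the most counts; other genes were chosen after their values were seen. Likeness used genes with a mean count of at least 50, and 1 gene it found is not reported here. Grk2 and Grk3 were read under their older symbols, and Adcy9 was not analysed here. Members and lists were chosen with earlier results of these data known. A genome of build rn6 was not used here, and neither coordinates nor sequences are given. Total counts per rat limit genes with few counts, where the counting error is large.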

Additional observations from a re-analysis of the deposited data

Results flagged for a closer look

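Among the 42 groups of 4 rats examined (the 10 receptors and the 4 called pathway genes in 3 groups), 2 held a rat far from its group, and about 2.10 are flagged by chance. Htr2a in MA24 rat 14N was at 0.18 log2 CPM (21 counts), with a gap to the next rat of 0.832 of the group's range. Adarb2 in non-addicted rat 9 was at 0.82 log2 CPM (32 counts), with a gap of 0.942 of the range.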

How the results depend on the processing

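Of 240 receptor fold changes with 1 rat left out, 214 kept direction and side of the threshold, 25 changed sign and 1 became called. Of 210 under other settings these numbers were 193, 15 and 2. The count of called receptors stayed at 0 in MA24 vs MA12 and in non-addicted vs MA12 under all settings run. In non-addicted vs MA24 it was 1 (Htr1a) with DESeq2 (2.72), 1 without rats 9 and 14N together, and 0 to 1 with 1 rat left out. With a covariate for the kind of rat number, MA24 vs MA12 turned for Htr1a (1.36), Htr1d (-0.17), Htr6 (-0.03) and Htr7 (0.15), and non-addicted vs MA12 for Htr3a (0.00). Non-addicted vs MA24 turned for Htr1a (-0.90), Htr1d (0.10), Htr2c (-0.06), Htr3a (0.26) and Htr7 (-1.01). Among rats with N, MA24 vs MA12 turned for Htr1a (1.38), Htr1d (-0.15), Htr6 (-0.02) and Htr7 (0.16), and among rats without N, non-addicted vs MA12 for Htr3a (0.01). The cause was not tested. With 1 rat left out, MA24 vs MA12 ran from -0.04 to 0.19 for Htr1d, -0.41 to 0.03 for Htr2a, -0.04 to 0.15 for Htr2c, -0.25 to 0.05 for Htr3a and -0.03 to 0.13 for Htr6. Non-addicted vs MA12 ran from -0.30 to 0.30 for Htr2a, -0.47 to 0.10 for Htr4 and -0.59 to 0.11 for Htr7. Non-addicted vs MA24 ran from 1.54 to 3.18 for Htr1a, -0.03 to 0.13 for Htr1b, -0.24 to 0.62 for Htr1f, -0.07 to 0.54 for Htr2a and -0.33 to 0.03 for Htr3a. The 4 pathway calls of MA24 vs MA12 came to 0 without the variance filter, to 0 in 1 fit of the 3 groups, to 2 with no filter, and to between 0 and 5 with 1 rat left out. Without the variance filter their log2 fold changes were -1.24 (Adarb2), -0.59 (Arrb1), -0.60 (Gnaq) and -1.55 (Kcnj6) and the adjusted p moved to 0.0599 to 0.0776. The call of Kcnj6 in non-addicted vs MA24 was lost under the same 3 settings. Over all genes, the 49 calls of that comparison came to 0 without the variance filter, to 0 in 1 fit of the 3 groups and to 10 with no filter. They ran from 0 (without non-addicted rat 12) to 187 (without non-addicted rat 13) with 1 rat left out. No paired analysis was run, because each library came from a different rat and the labels name no pairs.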
